A study of Mus musculus with 16 samples.

Results

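The comparison described here is the tumour effect in mouse liver over both arms of the study, tumour tissue against control tissue after the difference between the arms had been taken out. It used all 16 of the series' 16 samples, 10 tumours and 6 control livers, chosen by their titles. The phenobarbital arm, in which mice received 0.05% of this liver tumour promoter, held 7 tumours with mutated Ctnnb1 and 3 control livers. The untreated arm, without phenobarbital, held 3 tumours with mutated Ha-ras and 3 control livers.

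The mice were males of the inbred strain C3H/HeJ, and the series' design text describes 1 injection of DEN (diethylnitrosamine, a liver carcinogen) at the age of 2 weeks or 6 weeks, with 10 µg or 90 µg given for each g of body weight. After 2 further weeks, a diet with or without phenobarbital was given for 28 to 36 weeks, while the sample labels give 27 weeks and their treatment protocol gives 28 days in drinking water. Which dose, age and duration belonged to which sample, and whether the control mice were given DEN, is not stated. Tumour genotype and phenobarbital went together, so a difference between the arms cannot be assigned to either. The labels do not say whether samples came from separate animals, and the p-values then measure only the spread between these samples, which may be technical.

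MicroRNAs (miRNAs) are RNAs of about the length of the sequences below that pair with messenger RNAs and lower their translation and stability. Pairing is led by the seed, bases 2 to 8 of the miRNA, so that miRNAs with the same seed share many targets and are treated as a family. In liver, miR-122 is the most abundant hepatocyte miRNA, while other miRNAs mark cells such as endothelium (miR-126), stellate and other mesenchymal cells (miR-199a and miR-143) or white blood cells (miR-142 and miR-223). Ctnnb1 codes for β-catenin, which carries the Wnt signal to the nucleus, and Ha-ras for a GTPase that drives the MAP kinase cascade.

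The mature sequences on which the results turn are given 5′ to 3′ from RefSeq (mouse build GRCm38.p6), with the seed in capitals. The first pair passed a test for a fall in both arms.
miR-10a: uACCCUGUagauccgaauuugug
miR-199a-3p: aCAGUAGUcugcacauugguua

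miR-10a maps to chr11:96317186-96317208 on the plus strand. miR-199a-3p has 2 copies, at chr1:162217883-162217904 on the plus strand and chr9:21496498-21496519 on the minus strand.

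The following 5 share the seed AGCAGCA, and the first pair of them fell while the other members did not pass the test.
miR-195: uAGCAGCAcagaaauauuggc
miR-497: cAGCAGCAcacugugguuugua
miR-15a: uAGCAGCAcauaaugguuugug
miR-15b: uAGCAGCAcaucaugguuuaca
miR-16: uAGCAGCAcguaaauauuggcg

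The next 4 are shown because 3 of them fell and differ from each other, and from the uncalled let-7a, by very few bases.
let-7a: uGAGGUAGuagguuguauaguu
let-7b: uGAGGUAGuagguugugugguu
let-7c: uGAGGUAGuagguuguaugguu
let-7g: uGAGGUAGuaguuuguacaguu

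The last set holds a pair with 1 seed of which miR-27a alone rose (miR-27a and miR-27b), the most abundant miRNA that rose (miR-21), the pair with the seed GAGAACU, of which 1 rose, and miR-193 and miR-365, which had the largest untreated-arm falls among the called miRNAs after miR-199a-3p.
miR-27a: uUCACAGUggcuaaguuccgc
miR-27b: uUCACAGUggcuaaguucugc
miR-21: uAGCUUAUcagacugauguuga
miR-146a: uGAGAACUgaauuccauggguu
miR-146b: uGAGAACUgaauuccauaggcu
miR-193: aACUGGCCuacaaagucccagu
miR-365: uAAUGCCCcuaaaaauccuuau

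Levels below are log2 values of array signal scaled to be comparable between arrays, with a floor at 4.64 under which no order can be read. Each array detected 83 to 117 of the 566 mouse miRNAs, and 96 were detected on every array of at least 1 of the 4 groups and tested. The 75th percentile of the detected probes before scaling was 459 to 1248 signal units on tumour arrays and 386 to 644 on control arrays, and its part in the results was not tested. Slide went with tissue. Slide 1 held 8 tumours and no control, slide 3 held 3 controls and no tumour, and slide 2 alone held both (2 Ha-ras tumours and 3 controls). The number of arrays limits the precision. The labelled tissue matched its markers, with miR-122 between 13.09 and 14.47 on all 16 arrays and the muscle miRNAs miR-1, miR-133a, miR-133b and miR-206 detected on 0.

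Tumours of both arms together had lower levels of a broad set of miRNAs and higher levels of a smaller one. Of the 96 miRNAs, 31 differed between tumours and controls after adjustment for arm (32.3%; limma, Benjamini-Hochberg adjusted p below 0.05), 23 lower (24%) and 8 higher (8.33%). Falls were led by miR-199a-3p, miR-10a, miR-365, miR-193 and miR-195, and rises by miR-146b, miR-21, miR-27a and miR-96. The fold over the 31 ran from 1.15 to 2.80 with a median of 1.34, and it was above 1.5 for 9 and above 2 for 2, miR-199a-3p and miR-146b. These folds are means over the probes of a miRNA, and 7 of the 31 have a probe detected on at most 1 array, whose own difference is near 0 and lowers the mean. With the total gene signal of the software in place of that mean, the median fold was 1.60 and the highest 4.03, 10 folds were above 2, and 15 differences were more than 1.5 times as large. The median log2 difference of all 96 was -0.09.

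The split between directions moved with the settings: it was 2 higher and 16 lower with normexp background correction, 9 higher and 13 lower when arrays were scaled on the median of the detected probes, 8 and 13 after quantile normalisation, and 1 and 1 (miR-21 and miR-199a-3p) when scaled on all mouse probes, most of them undetected, which shifted the median of the 96 to 0.22.

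**Figure D1:**
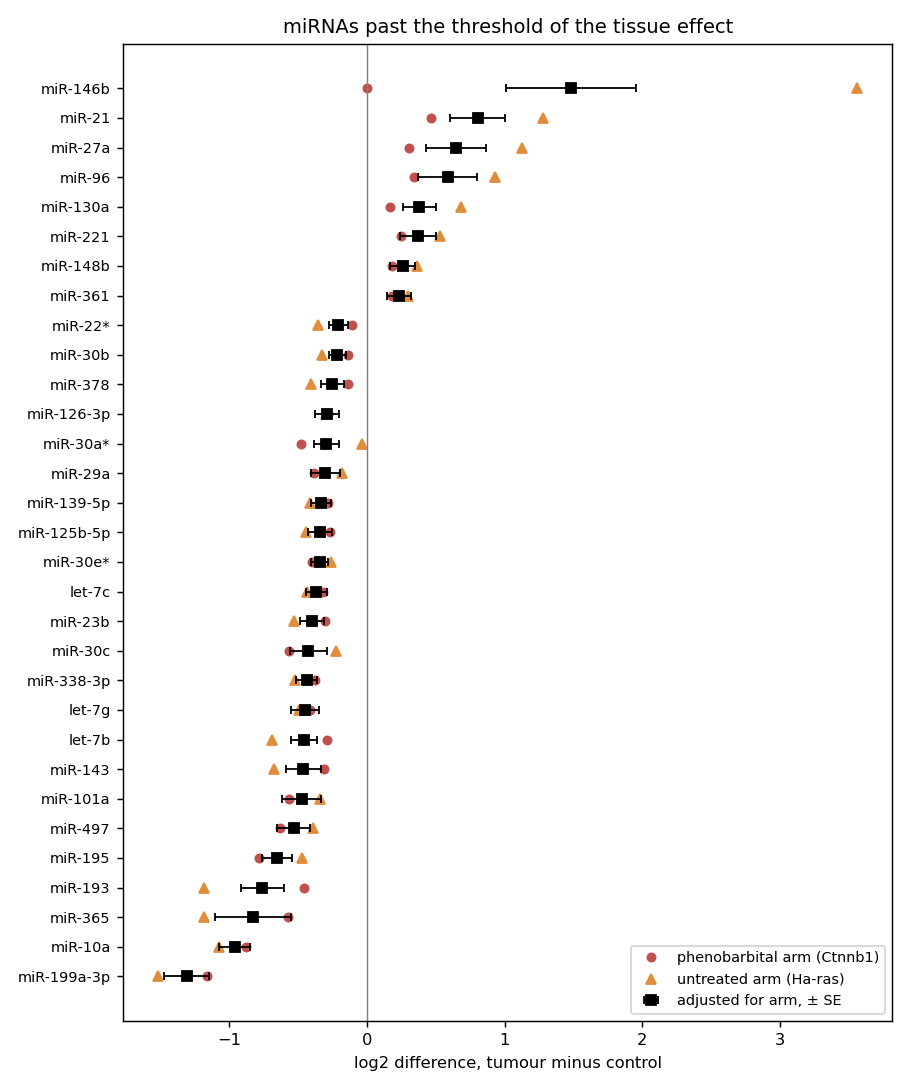
Log2 difference between tumours and controls (x axis, tumour minus control) for the 31 miRNAs that passed the test (y axis), as the value adjusted for arm (black squares, bars ± SE) and in each arm alone (circles, Ctnnb1 tumours minus phenobarbital controls; triangles, Ha-ras tumours minus untreated controls). The 8 rises stand at the top and the 23 falls below, and for all 8 rises the untreated arm gave the larger difference.

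An additive effect can come from 1 arm alone, so the arms were also read apart; they share no arrays. By the stricter test that both arms must differ in the same direction, 2 of the 96 miRNAs passed (2.08%), miR-10a and miR-199a-3p, both lower, and 12 had an unadjusted p below 0.05. The other 29 are described as the arm-adjusted difference. The count of 2 became 0 with slide as a fixed block or with scaling on all mouse probes, and 1 with a replicate block. Without Ctnnb1 tumour replicate 1 the count was 7, and without untreated control replicate 1 it was 5, the first pair among them each time. Of the 31, 30 had the same sign in both arms, as had 58 of all 96 (60.4%). miR-146b was the exception, with a difference of 0 in the phenobarbital arm. The 31 were chosen by a weighted mean of these same arm differences, which favours equal signs, so their count does not test a shared effect.

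miR-10a, which is transcribed within the HoxB gene cluster, was lower in tumours than in controls on every array. The Ctnnb1 tumours ranged from 5.29 to 6.13 with a median of 5.58, and the phenobarbital controls stood at 6.51, 6.49 and 6.42. Ha-ras tumours had 5.43, 5.18 and 5.20, and untreated controls 6.34, 6.26 and 6.43. The highest tumour thus stayed below the lowest of all 6 controls. The arm-adjusted difference was -0.96 (SE 0.11, 1.94-fold lower, limma adjusted p = 2.48e-05), made of -0.88 (SE 0.15) in the phenobarbital arm and -1.07 (SE 0.17) in the untreated arm (adjusted p for both arms = 0.00247). It was lower in tumours with every scaling, but with scaling on all mouse probes its value was -0.59 (adjusted p = 0.122), and with normexp background it was -0.57 (adjusted p = 0.000765). Both of its probes were lower, with differences of -0.89 and -1.03.

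miR-199a-3p, which marks stellate and other mesenchymal cells, had the largest fall. Ctnnb1 tumours ranged from 5.09 to 6.11 with a median of 5.53, against 6.84, 6.78 and 6.65 in their controls. Ha-ras tumours had 5.06, 4.95 and 5.10, against 6.02, 6.98 and 6.65 in untreated controls. Tumours and controls did not overlap within either arm, although the lowest untreated control lay below the highest Ctnnb1 tumour. The difference was -1.31 (SE 0.16, 2.48-fold lower, limma adjusted p = 2.60e-05), with -1.16 (SE 0.21) and -1.51 (SE 0.25) in the phenobarbital and untreated arms (adjusted p for both arms = 0.00280). With scaling on all mouse probes it was -0.97 (adjusted p = 0.0214), and with normexp background -0.75 (adjusted p = 0.000519).

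**Figure D2:**
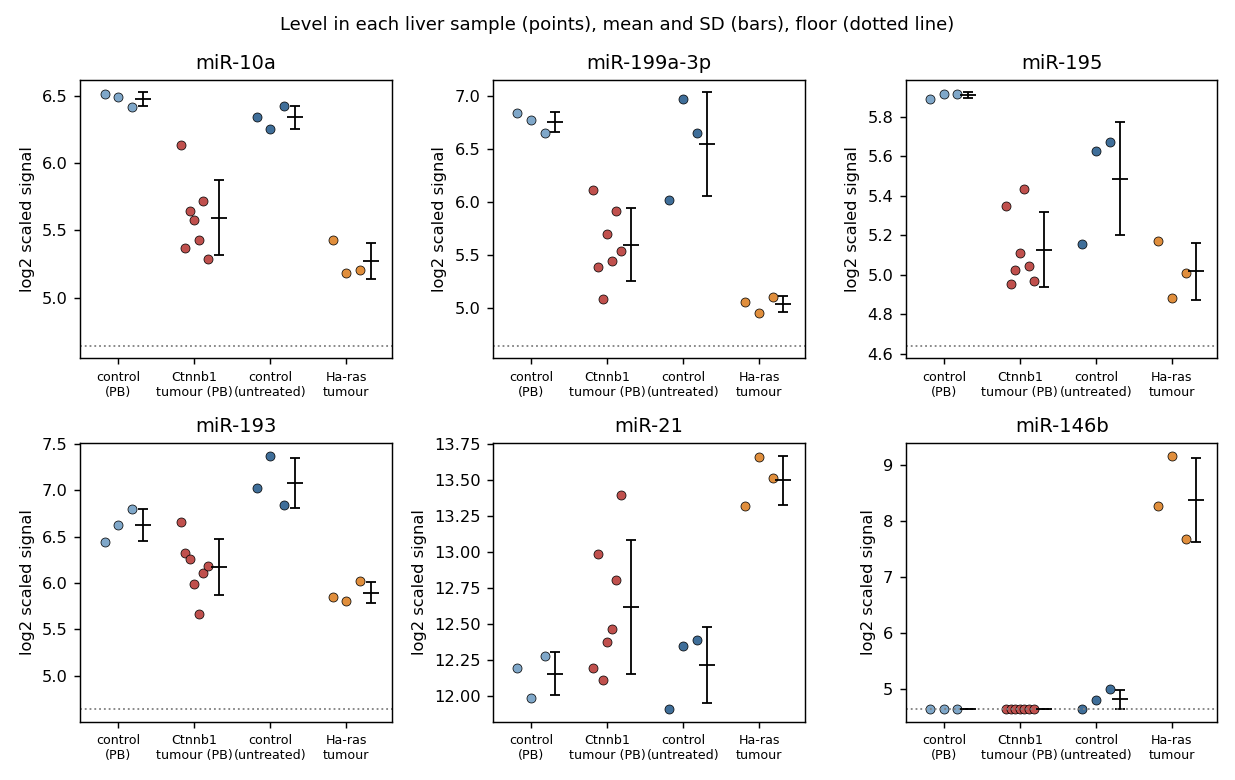
Log2 scaled signal (y axes) of 6 miRNAs in each of the 16 samples (points), by group (x axes; PB, phenobarbital), with the group mean and SD as bars and the floor as a dotted line where it lies in the range. miR-10a and miR-199a-3p are lower in the tumours of each arm, miR-195 and miR-193 overlap with controls in 1 arm each, miR-21 overlaps in the phenobarbital arm, and miR-146b is above 5 in the 3 Ha-ras tumours only.

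As for miR-10a, each of the 10 tumours was below each of the 6 controls for miR-30e* and miR-143, 3 of 96 miRNAs in total (3.12%). Within each arm taken alone, the tumours lay below their controls for 6 (6.25%): these 3, miR-199a-3p, miR-338-3p and miR-139-5p, the last a miRNA outside the rule for naming and chosen after its values were seen. No miRNA had all tumours above all controls, over both arms or within each. miR-338-3p fell by 0.43 on the log2 scale (SE 0.08, limma adjusted p = 0.000878) and miR-139-5p by 0.33 (SE 0.07, adjusted p = 0.00356). miR-30e* fell by 0.34 (SE 0.06, adjusted p = 0.000885). All 3 were near the floor: 5 tumour arrays were at it for miR-338-3p and 3 each for the others, so these differences depend in part on it. Each is also a mean with a probe detected on no array: the probe with most detections gave -0.87 for miR-338-3p, -0.96 for miR-139-5p and -0.68 for miR-30e*, and the total gene signal -1.27, -1.14 and -0.88.

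Of the cell markers, miR-199a-3p, miR-143 and miR-126-3p were lower in tumours. Both tested members of the mesenchymal list fell, miR-199a-3p and miR-143, a miRNA of smooth muscle and stroma (median -0.88, against -0.09 over all 96, of which 24% fell). miR-143 was detected on 1 of 10 tumour arrays and on 5 of 6 control arrays. Its controls stood at 4.88, 4.90 and 5.07 with phenobarbital and at 4.67, 5.60 and 5.67 without, and every tumour rounded to the floor of 4.64. The difference was -0.46 (SE 0.13, limma adjusted p = 0.0143), a value that the floor limits, and -1.45 by the total gene signal. The other members of the list were near absence in both tissues: miR-214 and miR-145 were detected on 0 arrays, miR-199a-5p on 1 and miR-199b* on 2. The summed level of the 6 was 7.28 to 7.60 in tumours and 7.57 to 8.17 in controls. Undetected members enter this sum at or near the floor, so much of it is not signal.

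miR-126-3p, which is encoded in the endothelial gene Egfl7, fell by 0.29 on the log2 scale (SE 0.09, 1.22-fold, limma adjusted p = 0.0271), with nearly the same value in the arms, -0.28 and -0.30. Ctnnb1 tumours ranged from 9.05 to 9.58 (median 9.29) against 9.60, 9.61 and 9.61, and Ha-ras tumours had 9.34, 8.97 and 9.08 against 9.24, 9.49 and 9.55. All 7 Ctnnb1 tumours lay below their controls, and 2 of 3 Ha-ras tumours did. With scaling on all mouse probes the value turned to 0.081 (adjusted p = 0.849), and its call was lost on leaving out any 1 of 6 arrays. The other endothelial member, miR-126-5p, from the same hairpin, was not tested and was detected on 5 of 10 tumour arrays and 3 of 6 control arrays. In bulk tissue, fewer cells of a type and less RNA per cell cannot be told apart.

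miR-195 and miR-497 fell together. They lie 311 bases apart on the plus strand of chromosome 11, at chr11:70235062-70235082 and chr11:70234730-70234751, and carry the seed of miR-15, whose family is known for targeting cell cycle genes. For miR-195 the Ctnnb1 tumours ranged from 4.96 to 5.44 (median 5.05) against 5.89, 5.92 and 5.92 in controls. Ha-ras tumours had 5.17, 4.88 and 5.01 against 5.16, 5.63 and 5.68. The arms thus differed in their separation, with 1 low untreated control, replicate 1, at the level of the tumours. The difference was -0.65 (SE 0.11, 1.57-fold lower, limma adjusted p = 0.000543). For miR-497 it was -0.53 (SE 0.12, 1.44-fold lower, adjusted p = 0.00366), with Ctnnb1 tumours from 5.05 to 5.81 (median 5.18) against 5.95, 5.80 and 5.89, and Ha-ras tumours at 5.32, 4.99 and 5.20 against 5.26, 5.76 and 5.65. On slide 2, where the untreated control is that low array, the values were -0.21 and -0.17. By the total gene signal the differences were -1.001 and -0.91.

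The remaining members with that seed did not pass. miR-15b stood at 0.36 (SE 0.16, adjusted p = 0.106), miR-16 at -0.08 (adjusted p = 0.682) and miR-15a at -0.10 (adjusted p = 0.555). Of the 5 tested members 2 fell and 0 rose, where 24% of all 96 fell, and the median was -0.10, close to the -0.09 of all 96. That median changed sign with scaling on all mouse probes (0.27) and on the median (0.0047).

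In the let-7 family, whose known targets include growth genes such as the Ras genes, 3 of 9 tested members fell and 0 rose, with a median of -0.21; over all 96, 24% fell with a median of -0.09, so the family's count is near that share. let-7b ranged in Ctnnb1 tumours from 8.96 to 9.40 (median 9.09) against 9.34, 9.47 and 9.54 in controls, and in Ha-ras tumours had 9.03, 8.96 and 8.92 against 9.73, 9.57 and 9.66. It fell by 0.45 on the log2 scale (SE 0.09, limma adjusted p = 0.00237), let-7g by 0.45 (SE 0.10, adjusted p = 0.00356) and let-7c by 0.37 (SE 0.08, adjusted p = 0.00237). All 3 Ha-ras tumours lay below their controls for each of these, and 5 to 6 of the 7 Ctnnb1 tumours did. let-7a, at -0.27 (adjusted p = 0.128), let-7f, at -0.21 (adjusted p = 0.467), and let-7i, at -0.02 (adjusted p = 0.905), did not pass. let-7b and let-7c, like let-7a and let-7c, differ at 1 base, and how far the probes tell them apart was not tested. With scaling on all mouse probes the family median turned to 0.16, let-7c to 0.0025 and let-7b and let-7g to -0.08.

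let-7b and let-7c are also neighbours, 688 bases apart on chromosome 15 (chr15:85707325-85707346 and chr15:85706616-85706637), although let-7c has a second copy on chromosome 16 (chr16:77599672-77599693). Among the 77 of 96 miRNAs matched to a position in RefSeq on the chromosomes used, 32 pairs of mature sequences lay within 10000 bases of each other. The arm-adjusted difference had the same sign in 24. The pairs share transcripts and members, so these counts are a description. Both members were called lower in 3 pairs: miR-195 with miR-497, let-7b with let-7c, and miR-30c with miR-30e*.

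**Figure D3:**
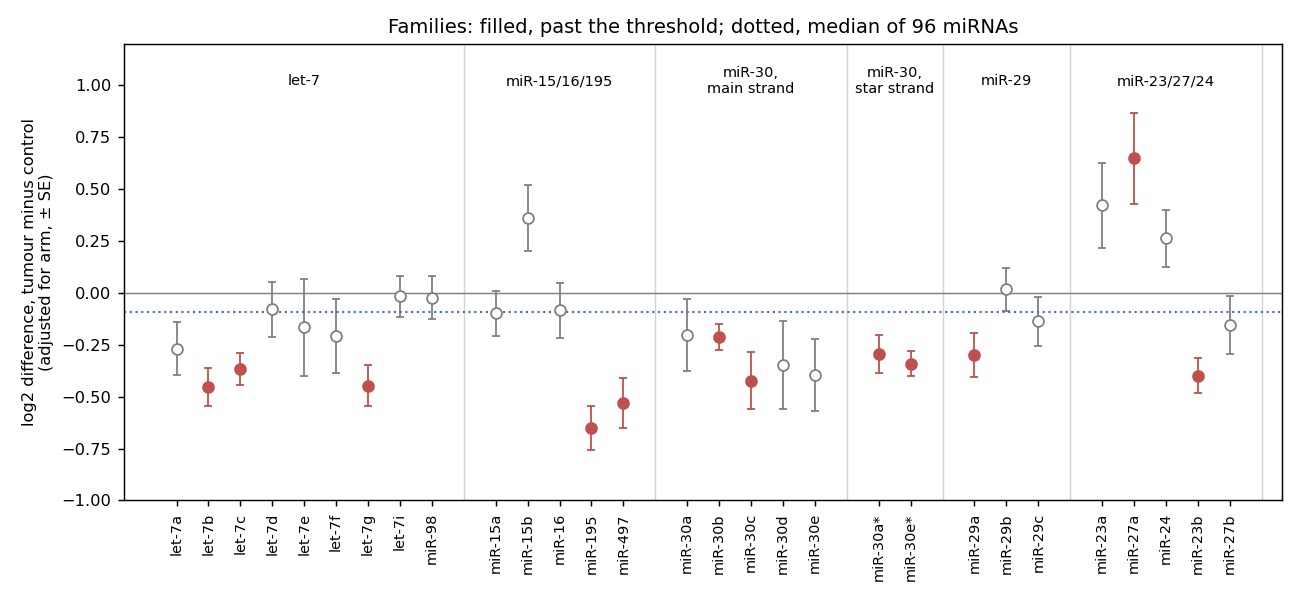
Arm-adjusted log2 difference between tumours and controls (y axis, bars ± SE) for members of 5 families and clusters (x axis); filled points passed the test, and the dotted line is the median of -0.09 over 96 miRNAs. In the let-7 and miR-15 families filled and open members share a seed, and no test compared them; with scaling on all mouse probes let-7c (0.0025), miR-29a (0.070) and miR-30a* (0.0084) turn above 0.

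miR-30 miRNAs, abundant in epithelia, had 4 of 7 tested members lower and 0 higher (median -0.34), against 24% lower and a median of -0.09 over all 96. These were the main strands miR-30c (-0.42, SE 0.14, limma adjusted p = 0.0307) and miR-30b (-0.21, SE 0.06, adjusted p = 0.0247; -0.43 in its detected probe) and the star strands miR-30e* and miR-30a* (-0.29, SE 0.09, adjusted p = 0.0271). miR-30a* differed in the phenobarbital arm (-0.48, SE 0.10) while the untreated arm gave -0.04 (SE 0.12), and a difference between the arms did not pass (adjusted p = 0.164). The family median was -0.03 with scaling on all mouse probes, where miR-30a* turned to 0.0084, and on slide 2 miR-30a* was at 0.045 and miR-30c at -0.041. Of miR-29, known for targeting collagen genes, 1 of 3 members fell: miR-29a, by 0.30 on the log2 scale (SE 0.10, adjusted p = 0.0395). Its value turned to 0.070 with scaling on all mouse probes and to 0.061 on slide 2, and the call was lost on leaving out any 1 of 11 arrays.

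miR-193 and miR-365, the 2 members of their list, both fell (median -0.79), against 24% lower and a median of -0.09 over all 96. Their copies on chromosome 11 lie at chr11:79712009-79712030 and chr11:79726467-79726488, and miR-365 has another at chr16:13453895-13453916. For miR-193 the Ctnnb1 tumours ranged from 5.67 to 6.66 (median 6.18) against 6.45, 6.63 and 6.80, and the Ha-ras tumours had 5.85, 5.81 and 6.02 against 7.02, 7.37 and 6.84. Only 1 of the 10 tumours lay inside the range of its own controls. The difference was -0.76 (SE 0.16, 1.69-fold lower, limma adjusted p = 0.00237; -1.16 by the total gene signal), with -0.45 in the phenobarbital arm and -1.18 in the untreated arm. miR-365 differed by -0.83 (SE 0.28, 1.77-fold lower, adjusted p = 0.0349), with the largest SE of all falls. Its lowest value, 5.37 in Ctnnb1 tumour replicate 5, lay under all other arrays, and without that array the difference was -0.68 with an adjusted p of 0.00797. The call was lost on leaving out any 1 of 8 other arrays.

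Other falls were those of miR-23b (-0.40, SE 0.09, limma adjusted p = 0.00307) and miR-125b-5p (-0.34, SE 0.09, adjusted p = 0.0101; -0.67 in the probe detected on all arrays). miR-22* (-0.21, SE 0.07, limma adjusted p = 0.0352) also fell, but is outside the naming rule and was chosen after its values were seen. All 3 Ha-ras tumours were at the floor for miR-22*, so its difference depends in part on the floor. Its call was lost on leaving out any 1 of 8 arrays. Of the hepatocyte list, 2 of 9 fell and 0 rose, near the 24% of all 96 that fell: miR-101a (-0.47, SE 0.14, adjusted p = 0.0247) and miR-378, which lies within the metabolic regulator gene Ppargc1b (-0.25, SE 0.08, adjusted p = 0.0311). miR-122 itself was at -0.22 (SE 0.16, adjusted p = 0.373), with Ctnnb1 tumours from 13.09 to 14.19 (median 13.72), their controls at 13.95, 14.22 and 14.11, Ha-ras tumours at 13.97, 14.33 and 14.47, and untreated controls at 14.24, 14.21 and 14.14. Tumours overlapped with controls in both arms. miR-192, of hepatocytes and gut epithelium, was at -0.19 (SE 0.09, adjusted p = 0.126). The median of the hepatocyte list, -0.20, turned to 0.17 with scaling on all mouse probes.

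Among the rises, miR-21, a miRNA induced by AP-1 and raised in many tumours, was the most abundant. Ctnnb1 tumours ranged from 12.11 to 13.40 (median 12.47) against 12.20, 11.99 and 12.28 in their controls, and Ha-ras tumours had 13.32, 13.66 and 13.52 against 11.91, 12.35 and 12.39. The 3 Ha-ras tumours and 5 of the 7 Ctnnb1 tumours lay above all their controls. The difference was 0.80 (SE 0.20, 1.75-fold higher, limma adjusted p = 0.00777), with 0.46 (SE 0.23) in the phenobarbital arm and 1.28 (SE 0.27) in the untreated arm, and it was 1.17 (adjusted p = 0.0184) with scaling on all mouse probes. miR-21 was the only rise whose call held on leaving out each of the 16 arrays in turn, against 14 of the 23 falls.

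In the list of miRNAs linked to Ras, MAP kinase and AP-1 signalling, 2 of 3 tested members rose and 0 fell (median 0.37). Over all 96, 8.33% rose and the median was -0.09. The list median was 0.25 in the phenobarbital arm and 0.99 in the untreated arm. A further member, miR-222, was detected on 0 arrays. miR-221, known for repressing the cell cycle inhibitor p27, rose by 0.37 (SE 0.13, adjusted p = 0.0413), a call lost on leaving out any 1 of 13 arrays, and was at 0.022 (adjusted p = 0.891) with normexp background. miR-31, the third, is described with the arms below. miR-34a, a target of p53, was at 0.95 (SE 0.37, adjusted p = 0.0635) and did not pass. Its values spread widely: 5.98 to 8.02 (median 6.89) in Ctnnb1 tumours against 6.82, 6.65 and 6.20, and 8.68, 8.97 and 8.08 in Ha-ras tumours against 7.36, 5.67 and 6.79.

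The miR-23a and miR-23b clusters are paralogs, each with a miR-27 and the same miR-24; a member of the former rose and a member of the latter fell. miR-27a rose by 0.65 (SE 0.22, 1.57-fold, limma adjusted p = 0.0349), with Ctnnb1 tumours from 6.85 to 8.08 (median 7.58) against 7.12, 6.76 and 7.49, and Ha-ras tumours at 8.41, 8.35 and 7.96 against 6.66, 7.37 and 7.31. Its neighbours miR-23a, at 0.42 (SE 0.21, adjusted p = 0.141), and miR-24, at 0.26 (SE 0.14, adjusted p = 0.170), did not pass. In the other cluster miR-23b fell, and miR-27b, with the seed of miR-27a, was at -0.15 (SE 0.14, adjusted p = 0.482). In miR-27a the difference came to 0.31 (SE 0.26) in the phenobarbital arm and 1.12 (SE 0.31) in the untreated arm. Leaving out any 1 of 8 arrays lost its call, and with normexp background it was 0.42 (adjusted p = 0.0810).

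The other rises were smaller or close to the floor. miR-130a rose by 0.38 (SE 0.12, limma adjusted p = 0.0270), miR-148b by 0.26 (SE 0.09, adjusted p = 0.0352) and miR-361, outside the naming rule and chosen after its values were seen, by 0.23 (SE 0.09, adjusted p = 0.0467). With another background correction (normexp) miR-148b turned to -0.11 and miR-361 to -0.041. miR-96, of a cluster known from sensory cells, was detected on 7 of 10 tumour arrays and 0 of 6 control arrays. Only a bound from the control side is therefore given, 1.27-fold higher. The 3 tumour arrays at the floor keep that value in the bound, so the true difference could be smaller. The fit itself, on values that include the floor on 3 tumour and 5 control arrays, gave 0.59 (SE 0.21, adjusted p = 0.0442), and 0.14 (adjusted p = 0.675) with normexp background. Ha-ras tumours had 5.46, 5.94 and 5.32, Ctnnb1 tumours ranged from the floor to 5.95, and no control was above 4.83.

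The arms were compared directly by the interaction of tissue and arm, which 2 of 96 miRNAs passed (2.08%), both with the larger difference in the untreated arm; 17 had an unadjusted p below 0.05. miR-146b, which is induced by inflammatory NF-κB signalling, stood at the floor in all 7 Ctnnb1 tumours and all 3 phenobarbital controls. It reached 8.26, 9.17 and 7.67 in Ha-ras tumours against 4.64, 4.79 and 4.99 in untreated controls. The interaction was 3.56 (SE 0.32, limma adjusted p = 1.44e-06), and the arm-adjusted difference of 1.48 (SE 0.47, adjusted p = 0.0286) is a mean of 3.56 and 0. Its call was lost on leaving out any 1 Ha-ras tumour or any 1 untreated control, and with normexp background (0.82, adjusted p = 0.0810). miR-146a, with the same seed, was at 0.09 (SE 0.13, adjusted p = 0.662).

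miR-31, a miRNA linked to MAP kinase signalling, had 5.98, 5.99 and 5.88 in Ha-ras tumours against 5.04, 5.05 and 4.80 in untreated controls. In the other arm 6 of 7 Ctnnb1 tumours were at the floor and 1 at 4.84, against 4.64, 4.99 and 4.65. Its interaction was 1.08 (SE 0.15, limma adjusted p = 0.000168), and its arm-adjusted difference, 0.36 (SE 0.15, adjusted p = 0.0962), did not pass. Floor values enter both interactions, so their sizes depend on the floor.

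**Figure D4:**
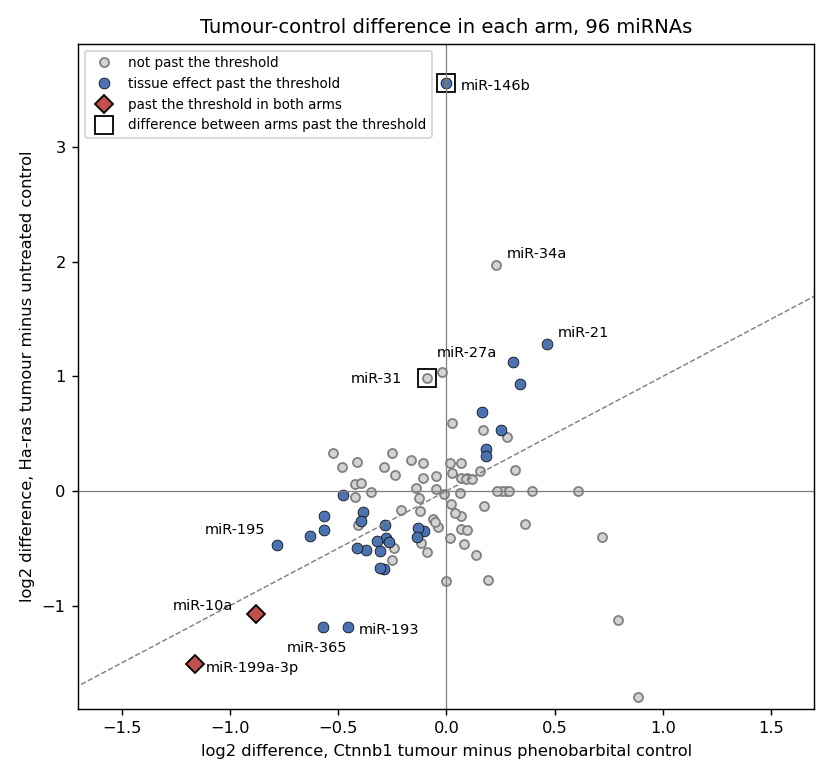
Log2 difference between tumours and controls in the phenobarbital arm (x axis) and in the untreated arm (y axis) for 96 miRNAs; the dashed line marks equal differences. miR-10a and miR-199a-3p (diamonds) lie near that line at the lower left, while miR-146b and miR-31 (squares) lie near 0 on the x axis.

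Across the 31, the untreated arm gave the larger absolute difference for 24, all 8 rises and 16 of 23 falls. The median rise was 0.22 in the phenobarbital arm and 0.81 in the untreated arm, and the median fall -0.38 and -0.43. In each arm alone, 7 of the 31 passed in the phenobarbital arm, 22 in the untreated arm, 5 in both and 7 in neither. No share over all 96 is given beside the counts of larger differences or of passes. They are therefore not read as a trait of the 31. The SE was larger in the untreated arm, which held fewer tumours (for miR-10a, 0.17 against 0.15). The arm-adjusted value weights the phenobarbital arm at 58.3% and the untreated arm at 41.7%, from the group sizes. Over all 96 miRNAs, which share arrays and scaling within an arm, the differences of the arms correlated with Pearson's r = 0.24 and Spearman's rho = 0.33.

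Of the leukocyte list, 1 of 4 tested members rose, against 8.33% of all 96, and the list median was -0.03, against -0.09. The member was miR-146b, which rose in the untreated arm alone. miR-146a, miR-142-3p at -0.26 (SE 0.25, limma adjusted p = 0.508) and miR-223 at -0.15 (SE 0.18, adjusted p = 0.608) did not pass. miR-150 and miR-155 were detected on 0 arrays. The summed level of that list was 8.50 to 9.69 in tumours and 8.39 to 9.12 in controls. The sum includes miR-146b, which reached 9.17 in Ha-ras tumour replicate 2, the array with the lowest miR-142-3p (6.79) and miR-223 (5.19). Neither tested erythroid miRNA passed, and miR-451 was at -0.14 (SE 0.32, adjusted p = 0.768). Of 5 biliary miRNAs, miR-200c, miR-141 and miR-429 were detected on 0 arrays, miR-200a on 2 and miR-200b on 5. miR-375, miR-216a and miR-217, of pancreas, were detected on 0.

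Slide bears on all these values. With slide in the model as a fixed block, the tissue effect rests on slide 2, the only one with both tissues, which held Ha-ras but no Ctnnb1 tumour. All 31 miRNAs had the same sign in that fit, with absolute values at a median of 1.10 times those without slide, and 1 passed, miR-10a (-1.17, limma adjusted p = 0.0114); miR-199a-3p was at -1.25 (adjusted p = 0.0568). Within slide 2 alone, where the arm term leaves 2 Ha-ras tumours against untreated control replicate 1, a single control whose own spread cannot be measured, miR-10a was at -1.15, miR-199a-3p at -0.99, miR-21 at 1.68 and miR-143 at -0.03, given as values with no test. For the phenobarbital arm, slide and tissue cannot be told apart.

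**Figure D5:**
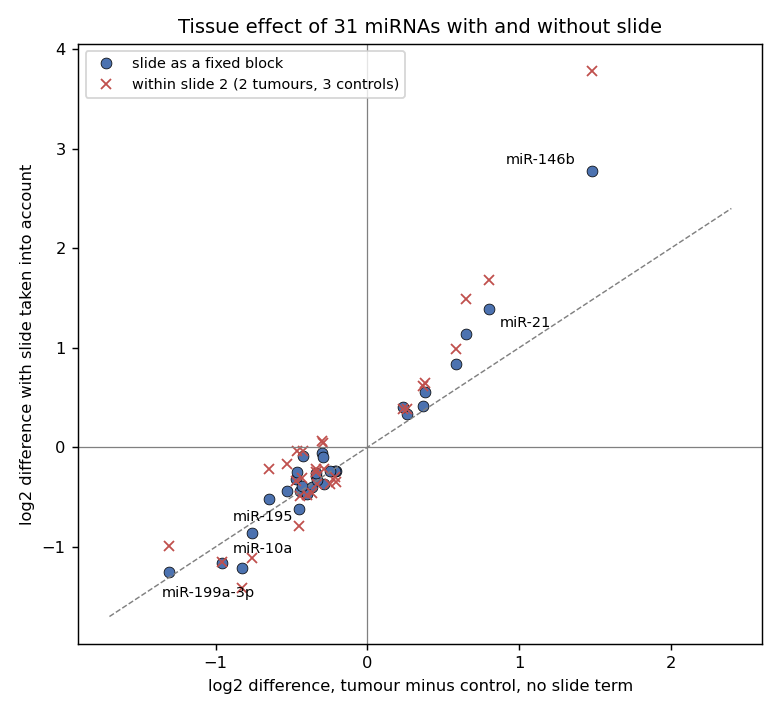
Log2 difference between tumours and controls without slide in the model (x axis) against the value with slide as a fixed block (circles) and within slide 2 (crosses) (y axis), for 31 miRNAs; the dashed line marks equal values. The 8 rises lie above the line, and miR-29a and miR-30a* cross to values above 0 within slide 2.

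The number of calls also rested on single arrays. It fell from 31 to 15 without untreated control replicate 2, to 19 without phenobarbital control replicate 6, Ha-ras tumour replicate 1 or Ha-ras tumour replicate 2, and to 20 without phenobarbital control replicate 5 or untreated control replicate 3. The 8 rises became 1 without untreated control replicate 2 or without any 1 Ha-ras tumour, and 2 without untreated control replicate 1 or 3. Of the 31, 15 were called whichever of the 16 arrays was left out: miR-21, miR-10a, miR-199a-3p, miR-195, miR-497, miR-193, miR-23b, miR-125b-5p, miR-139-5p, miR-143, miR-338-3p, miR-30e*, let-7b, let-7c and let-7g. Detection did not pass a test between the tissues: tumours had 104.6 ± 10.8 detected miRNAs (SD, n = 10) and controls 95.3 ± 6.53 (n = 6), a difference of 7.56 within arms (two-sided exact permutation test within arms, p = 0.12).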

How the data were processed

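Total RNA (25 ng) was end-labelled and hybridised to 1-colour Agilent miRNA arrays, per the labels' protocols. Spot intensity was extracted with Feature Extraction 10.7.3.1 (protocol miRNA_107_Sep09), per the file headers. The intensity used here is the deposited background-subtracted spot signal, not normalised between arrays. A deposited table of log2 values (147 entries, 146 from mouse) served as an alternative; R 2.14.1 is named in the submitters' processing notes, and how the table was normalised is not stated in them.

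Spots marked as outliers were left out, and spots of a probe were averaged. A probe was detected where over 50% of its spots were well above background. Each array was scaled on the 75th percentile of the 117 mouse probes that all 16 arrays detected. Values under a floor of 24.96 (log2 4.64) were set to it, and values were taken to log2 and averaged over the probes of a miRNA. The 96 miRNAs tested were fitted with limma 3.58.1 (lmFit and eBayes, R 4.3.3) on tissue and arm, with Benjamini-Hochberg adjustment over the 96 and a threshold of 0.05. Further fits added the interaction of tissue and arm, or took the larger of the p-values of the arms. A bound sets tumours against the higher of a control array's own value and its lowest detected signal. The scripts were tested on simulated data.

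Named are up to 12 called rises and 12 falls by size among miRNAs detected on all arrays of a tissue, up to 5 bounds per direction, the 5 smallest interaction p-values, up to 3 members of each list, and the cell markers. Members, lists and rule were chosen with earlier results of these data known. Alternatives were other scalings, background, floor, filters, probe summaries, slide, arm and array weights, a replicate block and leaving out each array. Not all chromosomes were used in the matching, and 77 of the tested miRNAs matched a RefSeq sequence. A miRNA without a match may thus still have an entry. Without a match, miR-122, miR-143, miR-23b, miR-30b and miR-378 are named only. Probe names are those of the array design.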

Additional observations from a re-analysis of the deposited data

Results flagged for a closer look

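Only the Ctnnb1 tumours, with 7 samples, formed a group of at least 4. For 62 miRNAs in that group, 4 values (6.45%) stood far from the rest, and chance gives about 1 in 20 for separate values without ties. The 62 share the same 7 arrays, so this share is a description only. Ctnnb1 tumour replicate 5 had a level of 5.37 for miR-365, against 6.76 to 7.66 in the other 6, and of 5.81 for miR-497, against 5.05 to 5.33. Ctnnb1 tumour replicate 1 had 4.84 for miR-31 while the other 6 stood at the floor of 4.64, where any value above the floor is flagged. The same array had 5.29 for miR-345-5p against 4.64 to 4.89.

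The tumour effect differed between the arms, by the interaction of tissue and arm, for miR-146b (3.56 on the log2 scale larger in the untreated arm) and for miR-31 (1.08 larger). Among the 40 viral probes, which no comparison used, 2 were detected on Ha-ras tumour replicate 2, against 0 or 1 on the control arrays.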

How the results depend on the processing

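The count of 31 miRNAs called for the tissue effect became 2 with scaling on all mouse probes, 18 with normexp background, 4 with the deposited values, 14 without a detection filter (566 miRNAs adjusted together), 1 with slide as a fixed block and 2 within slide 2 (where 1 untreated control is assumed to vary like the other groups), and it ran from 15 to 35 on leaving out each array. Under 9 other settings it was between 21 and 36. The interaction count of 2 was 1 with normexp, total gene signal or the deposited values, 0 over the miRNAs detected on all 16 arrays (limma; 13 at an unadjusted p below 0.05), 4 with slide as a random block and 7 with array weights. The count for both arms, 2, was 0 with scaling on all mouse probes and with slide as a fixed block (limma, 2 at an unadjusted p below 0.05 in each), 10 with slide as a random block, 11 with array weights, and 2 to 7 on leaving out each array. In the tissue fit, the random block had an estimated correlation within slides of -0.07. Its larger counts are therefore not read as counts with slide taken out.

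Deviations of same-numbered tumours and controls of an arm had correlations from -0.77 to 0.58, and those of differently numbered ones from -0.73 to 0.71. With groups this small, these values cannot decide whether the numbers mark a pairing. With a replicate block the counts were 19, 4 and 1. Signs turned with scaling on all mouse probes for let-7c (0.0025), miR-126-3p (0.081), miR-29a (0.070) and miR-30a* (0.0084), with normexp for miR-148b (-0.11) and miR-361 (-0.041), and within slide 2 for miR-29a (0.061) and miR-30a* (0.045). The difference in detected miRNAs turned to -8.78 when any spot well above background counted. The causes were not tested. Signals near background limit miR-143, miR-338-3p, miR-139-5p, miR-30e*, miR-22*, miR-361, miR-96, miR-146b and miR-31, and in the untreated arm miR-127, miR-136, miR-376b, miR-377, miR-379 and miR-299*.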

Other observations

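Several families held no called member. Of miR-17-92 and its paralogs, known for driving proliferation, 0 of 8 tested members passed (median -0.0068, turning to 0.23 with scaling on all mouse probes), with miR-92a at -0.33 (limma adjusted p = 0.149) and miR-106b at 0.32 on the log2 scale. Of the 22 listed miRNAs of the imprinted Dlk1-Dio3 cluster, 5 were tested and 0 passed (median 0.16), and 11 were detected on no array. miR-377 (0.14) and miR-299* (0.23), of the same cluster but not on the list, were tested and did not pass. miR-377, miR-299*, miR-127, miR-136, miR-376b and miR-379 stood at the floor in all untreated controls and all Ha-ras tumours. Their untreated-arm difference was thus 0, and their arm-adjusted values come from the phenobarbital arm alone. miR-26a and miR-26b (median -0.22) and miR-103 and miR-107 (median 0.02) did not pass either.

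The arms were furthest apart in opposite directions for miR-494, at 0.88 (SE 1.03) in the phenobarbital arm and -1.80 (SE 1.22) in the untreated arm, chosen after its values were seen. The negative value rests on 1 array: untreated control replicate 3 had 12.29, against 6.91 and 6.13 in the other controls of that arm and 4.89, 8.48 and 6.57 in Ha-ras tumours. The interaction did not pass (adjusted p = 0.411).

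Beside the 96 tested, 54 miRNAs were detected on at least 1 array, with no test. Chosen after their values were seen, miR-350 was detected on 8 of 10 tumour arrays and 0 of 6 control arrays, miR-680 on 6 and 0, and miR-125a-5p, of the miR-125 family in which miR-125b-5p fell, on 5 and 0. Detection on tumour arrays only was not particular to them, as miR-188-5p, miR-142-5p and miR-495 were each detected on 3 and 0. The reverse occurred too, as for miR-199b* (0 and 2). Tumour arrays, which were more numerous, had a median of 105.5 detected miRNAs, and control arrays 96. miR-802, enriched in liver, was detected on 3 tumour arrays and 4 control arrays.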
